A study of Homo sapiens with 15 samples.

Results

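Interferon-stimulated genes were followed in RNA-seq of DLD1, a human colorectal cancer cell line, with and without the deubiquitinase USP7. The genes were a list of 42 symbols known for induction by interferon, taken by name and not by a threshold on these values. The list was chosen with earlier results of these data known. Of the 42 genes, 38 were among the 22705 genes used from the deposited table, and all 38 passed the filter on low values that left 15134 genes to test. IFI44, IFI44L, XAF1 and BST2 were not analysed here.

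Interferons are secreted proteins that warn cells of a virus. The receptor kinases JAK1 and TYK2 phosphorylate STAT proteins such as STAT2, which join IRF9 in a complex that binds the interferon-stimulated response element in promoters and switches these genes on. IRF1 and other factors of the same family bind the same element, and many of these genes are also transcribed at a low level without infection. Their products block virus entry, bind or cut viral RNA, tag proteins with the ubiquitin-like ISG15, or feed back on the pathway as sensors and transcription factors.

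The 15 libraries fall into 5 groups of 3. USP7-KO cells without doxycycline are called KO, and the same line given doxycycline at 1 µg/ml for 1, 3 or 9 days is called day 1, day 3 and day 9. Per the labels that line was made by transfecting DLD1-USP7-KO cells with pTREG-BI-USP7, which encodes GFP-USP7, and the Tet-ON plasmid pEF1α-Tet3G, followed by selection in G418, and all KO and doxycycline libraries are described as the inducible line. WT is parental DLD1 with no treatment. No label says how many KO clones were used, and G418 selection is stated only for the inducible line. Differences between KO and WT therefore cannot be told apart from differences between the lines. Doxycycline-treated WT cells were not analysed here. For days 1, 3 and 9 against KO, doxycycline, time in it and GFP-USP7 therefore cannot be told apart. The comparison of KO with WT asks what accompanies loss of USP7. The doxycycline series asks what accompanies doxycycline and the return of USP7 together.

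USP7 itself averaged 1389 ± 17.6 normalized counts in KO, 8239 ± 375.3 at day 1, 7828 ± 341.2 at day 3, 4788 ± 335.7 at day 9 and 3392 ± 25.4 in WT (SD, n = 3 each), so transcript was still counted in KO and exceeded the WT level under doxycycline. A normalized count is a read count divided by the library's size factor, and totals ran from 14741094 to 15347043 per library. Day 1 replicate 1 stood furthest apart: its squared difference from the other day 1 libraries was 17.08 and 12.12 times counting noise, against 1.675 between those 2. Day 9 replicate 1 also stood apart, by 6.409 and 5.238 times counting noise, against 2.393 between the other day 9 libraries. Column names carry 1 project code for the 9 WT, KO and day 1 libraries and another for the 6 day 3 and day 9 libraries, so for days 3 and 9 against KO or WT the code and the treatment cannot be told apart. Of the 9 colorectal epithelium markers in the table, 8 were higher in KO than in WT at an adjusted p under 0.05 in limma's test, where 24.8% of all genes tested were. EPCAM averaged 11350 in KO and 9989 in WT, and KRT18 45847 in KO and 27579 in WT (folds of 1.14 and 1.66). VIL1 averaged 2097 in KO and 539 in WT, and CEACAM5 48.5 in KO and 6.3 in WT (folds of 3.88 and 6.92). KRT20 alone went the other way, at 0 in all KO libraries and 170.1 to 229 in WT. It passed the filter on low values only through groups where it was higher. Of 17 markers of leukocytes, plasmacytoid dendritic cells, fibroblasts and endothelium, 3 were in the table (CD14, COL1A1 and VWF), and their summed level was 91.7 to 122.4 in KO, 79.6 to 102.7 at day 1, 66.6 to 87.1 at day 3, 60.5 to 97.5 at day 9 and 60.8 to 68.6 in WT. By the same test CD14 and VWF were higher in KO than in WT (adjusted p = 0.000359 and 0.00977), and COL1A1 did not pass (adjusted p = 0.819). The part of these differences in the results was not tested. The replicates are called biological in the labels, with no separate cultures named, so each p-value reflects the spread among these libraries only, and part of that spread may be technical.

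Promoters are shown because the response element is the feature that ties these genes together. RefSeq windows of 300 bases (GRCh38.p14, 250 before to 50 after the gene start) were found for 31 of the 38 members, and none for IFIT2, OAS2, OASL, IFITM2, MX2, DHX58 and IRF7. The windows were searched on both strands for the core of the element, GAAA followed by any 2 bases and GAAA again, where matches may overlap. At least 1 match was present for 20 of 31 members (64.5%), against 4.38% of all 27305 genes with a window. The 4 windows printed belong to members described in the results and run 5′ to 3′ in the direction of the gene, with each match in capitals. Positions count from 0 at the gene start to the first base of the match.
PARP14, chr3:122680589-122680888, plus strand, match at -29: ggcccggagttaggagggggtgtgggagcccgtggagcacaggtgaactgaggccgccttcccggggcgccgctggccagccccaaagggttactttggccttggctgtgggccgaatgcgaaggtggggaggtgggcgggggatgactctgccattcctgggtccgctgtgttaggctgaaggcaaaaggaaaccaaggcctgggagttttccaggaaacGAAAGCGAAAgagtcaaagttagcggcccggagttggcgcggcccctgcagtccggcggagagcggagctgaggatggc
IFIT3, chr10:89327747-89328046, plus strand, matches at -156 and -122 on the other strand: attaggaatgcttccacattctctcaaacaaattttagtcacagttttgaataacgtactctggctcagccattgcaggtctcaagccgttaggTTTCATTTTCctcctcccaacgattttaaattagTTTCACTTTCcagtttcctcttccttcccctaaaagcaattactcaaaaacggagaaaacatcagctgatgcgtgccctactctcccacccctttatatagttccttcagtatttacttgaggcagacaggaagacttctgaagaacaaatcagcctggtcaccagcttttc
SAMD9, chr7:93117930-93118229, minus strand, match at -136: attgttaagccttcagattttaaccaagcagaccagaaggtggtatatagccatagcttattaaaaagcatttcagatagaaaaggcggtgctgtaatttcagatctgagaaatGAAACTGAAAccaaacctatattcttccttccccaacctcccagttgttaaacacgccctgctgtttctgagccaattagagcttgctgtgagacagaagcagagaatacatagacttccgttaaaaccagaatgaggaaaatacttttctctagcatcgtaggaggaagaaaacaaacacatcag
OAS3, chr12:112938224-112938523, plus strand, matches at -143 and -12: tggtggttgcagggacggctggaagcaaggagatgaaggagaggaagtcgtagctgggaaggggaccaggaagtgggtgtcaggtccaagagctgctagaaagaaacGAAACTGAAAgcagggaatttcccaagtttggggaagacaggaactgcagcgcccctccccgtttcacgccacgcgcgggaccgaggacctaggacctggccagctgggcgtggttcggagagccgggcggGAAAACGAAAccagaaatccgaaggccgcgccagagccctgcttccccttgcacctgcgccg

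In KO, most interferon-stimulated genes were lower than in WT. Of the 38 members, 24 fell and 3 rose past an adjusted p of 0.05 in limma's test, where 24.8% of all 15134 genes fell and 24.8% rose. The 24 include OAS2, RSAD2 and IFI27, which stayed under 10 normalized counts in every KO library. They passed the filter on low values only through other groups, where they were higher. For them the filter favoured a fall in KO and a rise from it. The median member had a log2 fold change of -0.33, and the median of all genes tested was 0.00. The KO and WT libraries did not overlap in 25 members that were lower and 5 that were higher, against 31.2% and 31.9% of all genes. The genes that fell include antiviral RNA-binding proteins (the IFIT family, OAS3, SAMD9), the MX GTPases, both sensors and the PARP14 group, and the 3 that rose were SAMD9L, CMPK2 and IFITM3. Fold changes are on the scale of log2(normalized count + 1), with the standard error (SE), and adjusted p is Benjamini-Hochberg over all genes tested. In bulk RNA, fewer cells that express a gene and less RNA per cell cannot be told apart.

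By library, the median of the 38 members lay at -0.33, -0.34 and -0.35 log2 units from the WT mean in KO. It lay at -0.16, -0.25 and -0.18 at day 1, -0.06, -0.05 and -0.14 at day 3, and -0.01, -0.09 and -0.07 at day 9. The 3 KO libraries were the lowest of the 15, and each doxycycline library lay between them and the WT libraries, which were at 0.00, 0.00 and 0.01.

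**Figure D1:**
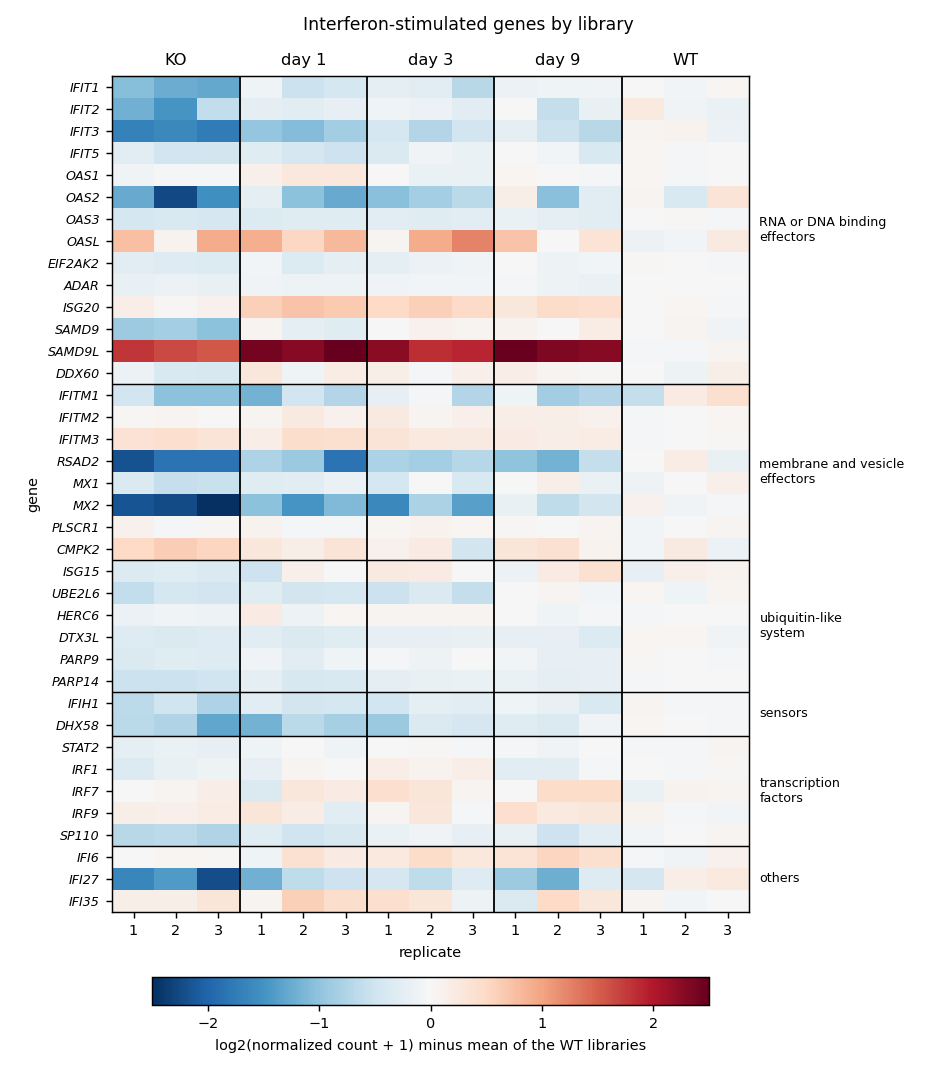
Each row is 1 of the 38 members, grouped by role, and each column 1 of the 15 libraries; colour is log2(normalized count + 1) minus the mean of the WT libraries. The KO columns hold the deepest blue, in MX2, RSAD2, IFI27, IFIT3 and OAS2, and SAMD9L is red in every KO and doxycycline library.

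Among the RNA or DNA binding effectors, 10 of 14 fell in KO and 1 rose. For this and the other role lists, 24.8% of all genes fell and 24.8% rose between KO and WT. IFIT1 and IFIT5 bind the 5′ end of foreign RNA, and IFIT2 and IFIT3 join IFIT1 in complexes. Normalized counts of IFIT3 were 29.9, 31.9 and 28.9 in KO, compared with 104, 105 and 88.5 in WT. IFIT1 had 63.8, 55.7 and 54.7 normalized counts in KO, against 136, 128 and 138 in WT. For IFIT2 the libraries held 33.9, 27.9 and 51.8 normalized counts in KO and 94.7, 74.9 and 70.6 in WT. No KO library of these 3 genes reached a WT library, and KO replicate 3 was the highest of its group for IFIT2 only. IFIT3 changed most of them, with a log2 fold change of -1.68 ± 0.15 and an adjusted p of 6.28e-09. IFIT1 fell by 1.19 ± 0.13 (adjusted p = 2.07e-07) and IFIT2 by 1.10 ± 0.19 (adjusted p = 5.91e-05) on the log2 scale. For IFIT5 the libraries held 329, 288 and 294 normalized counts in KO and 417, 392 and 396 in WT. IFIT5 was separated too but changed less, with a log2 fold change of -0.40 ± 0.09 and an adjusted p of 0.00137.

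The OAS enzymes make short adenylate chains that activate RNase L. For OAS3 the libraries held 3239.7, 3385 and 3291 normalized counts in KO and 4385, 4452 and 4312 in WT. The groups of OAS3 were far apart relative to their spread, with a log2 fold change of -0.41 ± 0.04 and an adjusted p of 2.7e-08. OAS2 had 4.98, 1.99 and 3.98 normalized counts in KO, against 13.95, 9.99 and 16.91 in WT. OAS2, described after its values were seen because its mean count is under the minimum of 20 used to choose members for full description, fell with a wide error, with a log2 fold change of -1.68 ± 0.38 and an adjusted p of 0.00103. OAS1 ran from 588.9 to 615.1 in KO and from 605.4 to 649.8 in WT, which overlap, and OASL, a catalytically inactive relative, from 18.9 to 34.8 in KO and from 15.9 to 20.9 in WT. Neither passed the test (adjusted p = 0.486 for OAS1 and 0.0849 for OASL). Without KO replicate 2, OASL was higher in KO with an adjusted p of 0.0252, and in a fit of the 6 KO and WT libraries alone with 0.0358.

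EIF2AK2 encodes PKR, the kinase that stops translation on sensing double-stranded RNA, and ADAR edits such RNA so that it is not sensed. For EIF2AK2 the libraries held 2956, 2865 and 2799.7 normalized counts in KO and 3649.8, 3560.4 and 3476 in WT. ADAR had 6682, 6935 and 6714 normalized counts in KO, against 7668, 7547 and 7673 in WT. Both pairs of groups are apart, by small margins, with log2 fold changes of -0.31 ± 0.06 (adjusted p = 0.000153) and -0.17 ± 0.04 (adjusted p = 0.000913). DDX60, a helicase linked to RNA sensing and described after its values were seen, had 111.6, 94.6 and 93.6 in KO and 122.6, 112.9 and 136.3 in WT. Its groups are barely apart, with a log2 fold change of -0.31 ± 0.12 and an adjusted p of 0.0337, and the call was lost without KO replicate 2, KO replicate 3, WT replicate 1 or WT replicate 3 (adjusted p from 0.0664 to 0.149). ISG20, an exonuclease that degrades RNA, overlapped between 43.8 to 48.8 in KO and 41.8 to 44.95 in WT.

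SAMD9 and SAMD9L are neighbouring paralogs whose proteins restrict poxviruses and slow growth and translation. For SAMD9 the libraries held 257, 265 and 237 normalized counts in KO and 485, 505 and 452 in WT. Normalized counts of SAMD9L were 44.8, 40.8 and 37.8 in KO, compared with 11.96, 11.99 and 12.93 in WT. The KO libraries were all below WT for SAMD9 and all above WT for SAMD9L. The log2 fold change was -0.92 ± 0.08 (adjusted p = 9.95e-09) for SAMD9 and 1.66 ± 0.15 (adjusted p = 1.58e-08) for SAMD9L. Reads that fit both paralogs may not be told apart in the counting, which leaves both values less certain.

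**Figure D2:**
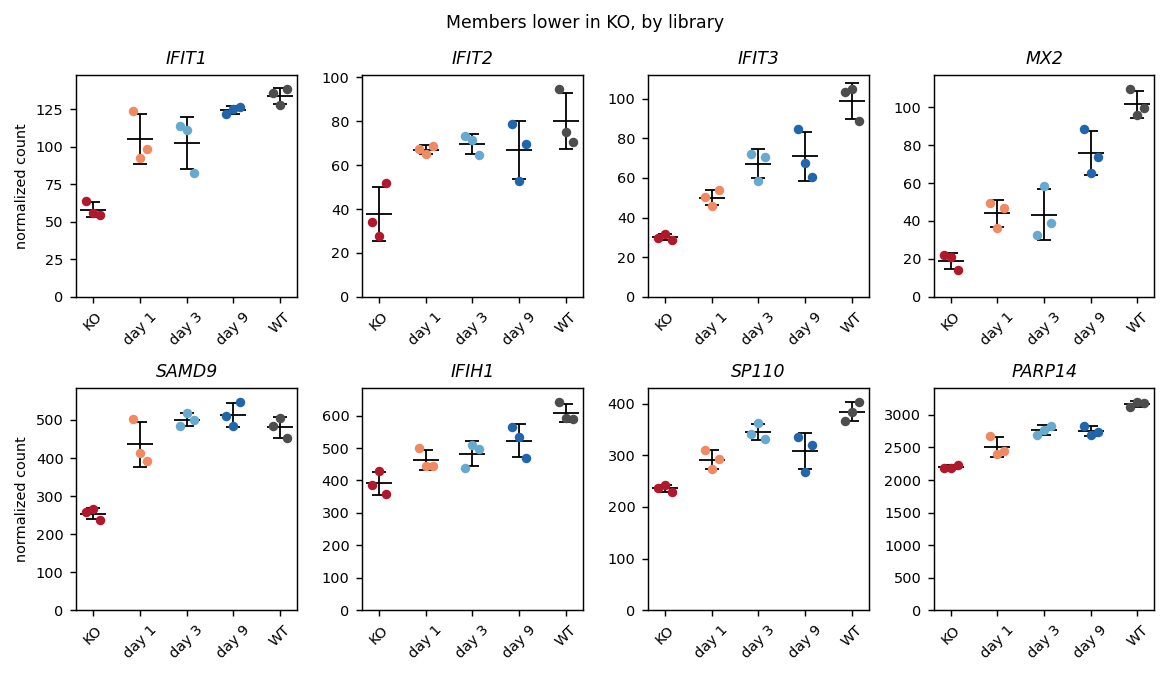
Points are normalized counts of single libraries for 8 members that fell in KO, with the group mean and SD as bars, in KO, at days 1, 3 and 9 of doxycycline, and in WT. KO is the lowest group in all 8 panels, and for SAMD9 and IFIT2 the day 3 and day 9 libraries overlap WT.

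Of the 8 membrane and vesicle effectors, 4 fell and 2 rose, where 24.8% of all genes fell and 24.8% rose. The share of this list that rose was near that of all genes. MX1 and MX2 are dynamin-like GTPases that trap viral nucleocapsids. For MX2 the libraries held 21.9, 20.9 and 13.9 normalized counts in KO and 109.6, 95.9 and 99.5 in WT. MX1 had 102, 87.6 and 89.6 normalized counts in KO, against 119.6, 133 and 143 in WT. MX2 showed the largest fall of the 38 members, with a log2 fold change of -2.39 ± 0.21 and an adjusted p of 5.77e-09, while MX1, its neighbour on chromosome 21, differed less, with a log2 fold change of -0.50 ± 0.12 and an adjusted p of 0.00225. RSAD2 encodes viperin, which makes a nucleotide that ends viral RNA chains, and CMPK2, beside it on chromosome 2, is a mitochondrial nucleotide kinase. CMPK2 had 73.7, 80.6 and 75.6 normalized counts in KO, against 49.8, 60.9 and 46.8 in WT. Normalized counts of RSAD2 were 6.98, 8.96 and 8.96 in KO, compared with 34.88, 39.96 and 30.84 in WT. The neighbours went opposite ways: CMPK2 rose, with a log2 fold change of 0.55 ± 0.16 and an adjusted p of 0.00843, and RSAD2, described after its values were seen because its mean is under 20, fell, with a log2 fold change of -1.96 ± 0.27 and an adjusted p of 3.25e-06.

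IFITM proteins sit in membranes and block fusion of viruses with the cell. For IFITM3 the libraries held 3886, 4052 and 3761 normalized counts in KO and 2948, 3019 and 3092 in WT. All KO libraries of IFITM3 lay above WT, with a log2 fold change of 0.37 ± 0.06 and an adjusted p of 1.29e-05. IFITM2 ran from 3292 to 3469 in KO and from 3269 to 3424 in WT and did not pass the test (adjusted p = 0.719). IFITM1 was counted at 7.96 to 11.96 in KO and at 10.96 to 22.88 in WT, overlapping, with a log2 fold change of -0.84 ± 0.32 (adjusted p = 0.0356). That call was lost without KO replicate 2, KO replicate 3, WT replicate 2 or WT replicate 3 (adjusted p from 0.104 to 0.16). The 3 genes lie side by side on chromosome 11 and are close in sequence, so their reads may not be told apart. PLSCR1, a phospholipid scramblase, overlapped at 883 to 973 in KO and 862 to 944 in WT.

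In the ubiquitin-like system, 4 of 6 members fell and none rose. PARP14 transfers ADP-ribose to proteins, and PARP9 with DTX3L forms an ADP-ribosylating ubiquitin ligase. Normalized counts of PARP14 were 2177, 2188 and 2233 in KO, compared with 3118, 3194 and 3187 in WT. The KO libraries were tightly grouped far under WT, with a log2 fold change of -0.53 ± 0.04 and an adjusted p of 3.95e-09, the lowest adjusted p of the 38 members. DTX3L had 1233, 1192 and 1236 normalized counts in KO, against 1583, 1598 and 1442 in WT. PARP9 had 716, 743 and 729.5 normalized counts in KO, against 932, 920.1 and 896 in WT. Both genes of the ligase were lower in all KO libraries, by -0.34 ± 0.05 (adjusted p = 1.59e-05) for DTX3L and -0.33 ± 0.06 (adjusted p = 0.000119) for PARP9 on the log2 scale. UBE2L6 had 192, 217 and 210.0 normalized counts in KO, against 302, 273 and 307 in WT. UBE2L6, the conjugating enzyme that hands on ISG15, was apart as well, with a log2 fold change of -0.51 ± 0.09 and an adjusted p of 4.82e-05.

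ISG15 itself, described after its values were seen, had 359.7, 371 and 356 normalized counts in KO, against 395, 498 and 487 in WT. Its KO libraries were all lower, but WT replicate 1 came close to them and the difference did not pass the test (log2 fold change -0.34 ± 0.16, adjusted p = 0.10). In a fit of the 6 KO and WT libraries alone its adjusted p was 0.000784. HERC6, a relative of the ISG15 ligase HERC5, ran from 635.8 to 666.9 in KO and from 693 to 713 in WT without passing (adjusted p = 0.129). Its groups did not overlap, and in the fit of the 6 libraries alone it passed (adjusted p = 0.0361).

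Both sensors fell. IFIH1 encodes MDA5, which binds long double-stranded RNA, and DHX58 encodes LGP2, which tunes it. IFIH1 had 385, 430.0 and 357 normalized counts in KO, against 641, 591 and 591 in WT. DHX58 had 18.9, 17.9 and 11.9 normalized counts in KO, against 31.89, 30.97 and 29.84 in WT. Neither gene overlapped between the groups, with log2 fold changes of -0.64 ± 0.08 (adjusted p = 2.03e-06) for IFIH1 and -0.91 ± 0.23 (adjusted p = 0.0022) for DHX58. Among the 5 transcription factors, 3 fell. Normalized counts of SP110 were 236, 243 and 229 in KO, compared with 367, 385 and 403 in WT. SP110, a nuclear body protein, changed most of them, with a log2 fold change of -0.70 ± 0.08 and an adjusted p of 4.82e-07. Normalized counts of STAT2 were 1223, 1287 and 1241 in KO, compared with 1408, 1389.6 and 1508 in WT. STAT2, the subunit that carries the activation domain of the interferon complex, differed by a small margin, with a log2 fold change of -0.20 ± 0.05 and an adjusted p of 0.00192.

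IRF1, an activator induced by interferon, had 258.1, 287 and 299 normalized counts in KO, against 328, 317 and 332 in WT. The groups were apart, with a log2 fold change of -0.21 ± 0.08 and an adjusted p of 0.0413, but the call was lost without KO replicate 1, KO replicate 2 or any of the 3 WT libraries (adjusted p from 0.0601 to 0.19). IRF9, the DNA-binding subunit, ran from 40.8 to 42.8 in KO and from 35.8 to 39.9 in WT, and IRF7, which amplifies interferon transcription, from 326 to 364 in KO and from 292 to 349 in WT. Neither passed the test (adjusted p = 0.456 and 0.732), though the groups of IRF9 did not overlap, with KO the higher. Of the 3 remaining members IFI27, a small mitochondrial protein, was counted at 4.98, 5.97 and 2.99 in KO and 12.96, 19.98 and 20.89 in WT. It is described after its values were seen, and it fell, with a log2 fold change of -1.76 ± 0.32 and an adjusted p of 0.000126. IFI27 passed the filter on low values only through groups where it was higher than in KO. IFI6 (log2 fold change 0.03 ± 0.10) and IFI35 (0.20 ± 0.19) did not pass the test. The groups of IFI35 did not overlap, at 56.7 to 63.7 in KO and 49 to 53.8 in WT.

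**Figure D3:**
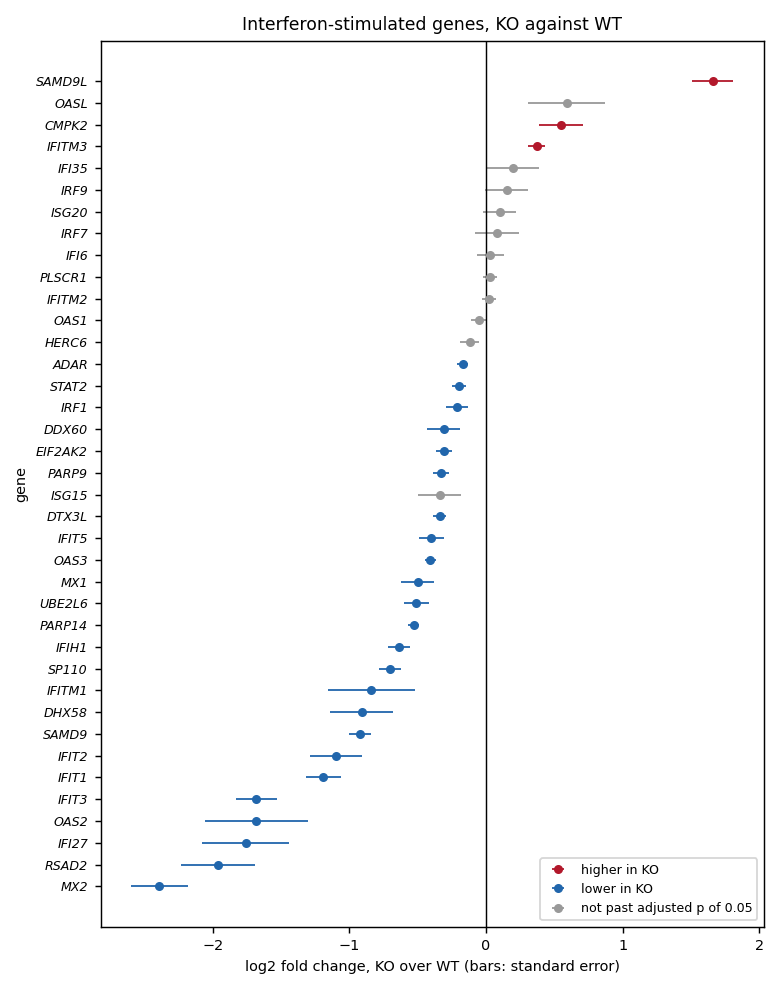
Log2 fold changes of the 38 members, KO over WT, with bars for the standard error; red marks the 3 members higher in KO, blue the 24 lower and grey the 11 that did not pass an adjusted p of 0.05. MX2 at -2.39 and SAMD9L at 1.66 are the ends of the range.

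Members with the response element core in a promoter window were described beside those without. Of the 20 with a match, 15 fell in KO, 1 rose and 4 did not pass. The 15 include RSAD2 and IFI27, for which the filter on low values favoured a fall. Of the 11 with a window and no match, 5 fell, 2 rose and 4 did not pass. Beside both counts, 24.8% of all genes fell and 24.8% rose. The member with a match that rose was IFITM3, and SAMD9L and CMPK2 had none in these windows. A match is a description of the letters in the window and not of binding. Where windows overlap, a match is shared: the windows of DTX3L and PARP9 share 137 bases and 1 match, while the RSAD2 window that overlaps CMPK2 by up to 165 bases holds none, and RSAD2's match lies in its other window.

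After 1 day of doxycycline some of the members that were low in KO were higher. At day 1, 11 of 38 members rose against KO and none fell, where 4.94% of all genes rose and 5.97% fell. The median member changed by 0.17 on the log2 scale and the median gene by -0.01. Day 1 and KO did not overlap in 21 members that were higher and 1 that was lower, against 12.8% and 14% of all genes. The 21 include OAS2, RSAD2 and IFI27, for which the filter on low values favoured a rise. Of the RNA or DNA binding effectors 8 of 14 rose (IFIT1, IFIT2, IFIT3, OAS1, ISG20, SAMD9, SAMD9L and DDX60), and MX2, PARP14 and SP110 were the other 3.

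MX2 had 49.36, 36.05 and 46.85 normalized counts at day 1, against 21.9, 20.9 and 13.9 in KO. All day 1 libraries were above KO, with a log2 fold change of 1.19 ± 0.21 and an adjusted p of 0.000714. For IFIT3 the libraries held 50.4, 46.1 and 53.8 normalized counts at day 1 and 29.9, 31.9 and 28.9 in KO. The groups were apart, with a log2 fold change of 0.71 ± 0.15 and an adjusted p of 0.00303. Normalized counts of IFIT1 were 124, 92.1 and 98.7 at day 1, compared with 63.8, 55.7 and 54.7 in KO. IFIT2 had 67.5, 65.1 and 68.8 normalized counts at day 1, against 33.9, 27.9 and 51.8 in KO. Neither gene overlapped between the groups, and the log2 fold changes were 0.83 ± 0.13 (adjusted p = 0.00032) for IFIT1 and 0.86 ± 0.19 (adjusted p = 0.00501) for IFIT2, in which the 3 day 1 libraries lay within 65.1 to 68.8.

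SAMD9 had 502, 414 and 392 normalized counts at day 1, against 257, 265 and 237 in KO. The increase was clear of the KO spread in each library and highest in day 1 replicate 1, with a log2 fold change of 0.78 ± 0.08 and an adjusted p of 3.26e-06. For SAMD9L the libraries held 68.5, 63.1 and 74.8 normalized counts at day 1 and 44.8, 40.8 and 37.8 in KO. SAMD9L, already above WT in KO, rose further, with a log2 fold change of 0.73 ± 0.15 and an adjusted p of 0.00372. Normalized counts of ISG20 were 65.5, 71.1 and 68.8 at day 1, compared with 48.8, 43.8 and 46.8 in KO. For OAS1 the libraries held 686, 750.0 and 746 normalized counts at day 1 and 589, 615 and 602 in KO. These 2 genes, which did not pass the test between KO and WT, rose by 0.55 ± 0.12 (adjusted p = 0.00671) for ISG20 and 0.27 ± 0.06 (adjusted p = 0.0046) for OAS1 on the log2 scale. By the authors' deposited adjusted p-values ISG20 missed the threshold (0.0703) and OAS1 passed it (0.00472).

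For PARP14 the libraries held 2679.5, 2394 and 2443 normalized counts at day 1 and 2177, 2188 and 2233 in KO. PARP14 was higher in each day 1 library by a small margin, with a log2 fold change of 0.19 ± 0.04 and an adjusted p of 0.009. For SP110 the libraries held 310.3, 273 and 292 normalized counts at day 1 and 236, 243 and 229 in KO. DDX60 had 150.1, 114 and 142 normalized counts at day 1, against 112, 94.6 and 93.6 in KO. Both were apart from KO, with log2 fold changes of 0.30 ± 0.08 (adjusted p = 0.0203) and 0.43 ± 0.12 (adjusted p = 0.0212). The SP110 call was lost without day 1 replicate 3, KO replicate 1 or KO replicate 3 (adjusted p from 0.0587 to 0.0787), and the DDX60 call without day 1 replicate 1, day 1 replicate 3, KO replicate 2 or KO replicate 3 (adjusted p from 0.0583 to 0.09). In a fit of the 6 day 1 and KO libraries alone, DDX60, PARP14 and SP110 missed the threshold (adjusted p = 0.0962, 0.0983 and 0.0684).

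Without day 1 replicate 1, the library that stood furthest apart, 15 members rose against KO: 10 of the 11 remained, DDX60 was lost (adjusted p = 0.0583), and IFITM2, ISG15, IRF1, IFI6 and IFI27 were added (adjusted p from 0.0248 to 0.0491). That library had 319 normalized counts of ISG15, against 501.7 and 457 in the other day 1 libraries, and 254 of IRF7, against 395.5 and 376. Replicate 1 was also the lowest of its group for ISG15 and IRF7 at day 9 (414 and 324) and in WT (395 and 292). At day 3 it was the highest for both genes (537 and 438). Without day 1 replicate 3 RSAD2 was added (adjusted p = 0.00887), without day 1 replicate 2 HERC6 and PARP9 (adjusted p = 0.0144 and 0.018), and without KO replicate 2 IFIH1 (adjusted p = 0.0386). The remaining members included UBE2L6, DTX3L, IFIT5 and DHX58, which were low in KO and had log2 fold changes of 0.10 ± 0.09, 0.02 ± 0.05, -0.01 ± 0.09 and 0.02 ± 0.23 at day 1.

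At days 3 and 9 more members were above KO. At day 3, 20 of 38 rose and 1 fell, where 13.5% of all genes rose and 13.9% fell, and the median member changed by 0.28 on the log2 scale against 0.01 for all genes. At day 9, 22 rose and 1 fell, where 12.4% of all genes rose and 13.4% fell, with medians of 0.28 for the members and 0.00 for all genes. RSAD2 and IFI27 rose at both days and OAS2 at day 9, and for them the filter on low values favoured a rise. Libraries did not overlap with KO in 25 members that were higher and 1 that was lower at day 3 (22.6% and 22.8% of all genes), and in 25 and 2 at day 9 (20% and 22.1%). These comparisons share the KO libraries with each other and with KO against WT, and set libraries of different project codes against each other.

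MX2 had 32.7, 58.6 and 38.8 normalized counts at day 3 and 88.6, 65.4 and 73.6 at day 9, against 21.9, 20.9 and 13.9 in KO. MX2 climbed the furthest of the members at day 9: the day 3 libraries spread widely and all 3 day 9 libraries exceeded every day 3 library. Its log2 fold change over KO was 1.14 ± 0.21 (adjusted p = 0.000284) at day 3 and 1.96 ± 0.21 (adjusted p = 3.26e-07) at day 9. IFIT3 had 72.3, 58.6 and 70.6 normalized counts at day 3 and 84.6, 67.4 and 60.7 at day 9, against 29.9, 31.9 and 28.9 in KO. IFIT1 had 114, 111 and 82.5 normalized counts at day 3 and 121, 125 and 126 at day 9, against 63.8, 55.7 and 54.7 in KO. Neither gene overlapped with KO at either day, and the log2 fold changes were 1.12 ± 0.15 and 1.19 ± 0.15 for IFIT3 and 0.80 ± 0.13 and 1.09 ± 0.13 for IFIT1 at days 3 and 9 (adjusted p from 2.42e-06 to 0.00011). IFIT2 ran from 64.6 to 73.3 at day 3 and from 52.6 to 78.6 at day 9, the lowest of these close to the highest KO library at 51.8.

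SAMD9 had 483, 518 and 501 normalized counts at day 3 and 511, 483 and 546 at day 9, against 257, 265 and 237 in KO. SAMD9 was above every KO library at both days, with log2 fold changes of 0.98 ± 0.08 (adjusted p = 1.49e-08) and 1.02 ± 0.08 (adjusted p = 8.07e-09). SP110 had 342, 363 and 331 normalized counts at day 3 and 336, 269 and 319 at day 9, against 236, 243 and 229 in KO. PARP14 had 2692, 2774 and 2836 normalized counts at day 3 and 2829, 2691 and 2741 at day 9, against 2177, 2188 and 2233 in KO. Both genes stayed clear of KO, with log2 fold changes of 0.55 ± 0.08 and 0.38 ± 0.08 for SP110 and 0.33 ± 0.04 and 0.32 ± 0.04 for PARP14 at days 3 and 9 (adjusted p from 9.36e-06 to 0.00164). SAMD9L, in contrast to its neighbour, had 62.4, 46.7 and 48.7 at day 3 and 72.7, 66.4 and 63.7 at day 9. It passed the test against KO at day 9 (log2 fold change 0.70 ± 0.15, adjusted p = 0.00162) and not at day 3 (0.34 ± 0.15, adjusted p = 0.11).

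IFIH1 had 439, 511 and 498 normalized counts at day 3 and 565, 535 and 469 at day 9, against 385, 430.0 and 357 in KO. UBE2L6 had 203, 229 and 193 normalized counts at day 3 and 298, 309 and 279.6 at day 9, against 192, 217 and 210.0 in KO. IFIH1 was higher than KO at both days, while UBE2L6 overlapped KO at day 3 and was above all KO and day 3 libraries at day 9. The log2 fold change of UBE2L6 was 0.01 ± 0.09 (adjusted p = 0.952) at day 3 and 0.52 ± 0.09 (adjusted p = 0.000105) at day 9. The IFIH1 call at day 3 (0.31 ± 0.08, adjusted p = 0.00915) was lost without day 3 replicate 2 or KO replicate 3 (adjusted p = 0.0519 and 0.0651), and at day 9 (0.42 ± 0.08, adjusted p = 0.000705) it held in each such fit. ISG15 had 537, 531 and 461 normalized counts at day 3 and 414, 529 and 593 at day 9, against 359.7, 371 and 356 in KO. ISG15 passed at both days (log2 fold changes 0.49 ± 0.16 and 0.48 ± 0.16, adjusted p = 0.0381 and 0.0417). It missed the threshold when any library but day 3 replicate 3 was left out at day 3, and when any library but day 9 replicate 1 was left out at day 9 (adjusted p from 0.0792 to 0.151).

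The members that fell against KO were CMPK2 at day 3 and IFITM3 at day 9, both of which had been higher in KO than in WT. CMPK2 had 56.4, 60.6 and 37.8 normalized counts at day 3 and 64.7, 68.4 and 55.7 at day 9, against 73.7, 80.6 and 75.6 in KO. Day 3 replicate 3 was the lowest of the 15 libraries for CMPK2 and carried the call (log2 fold change -0.59 ± 0.16, adjusted p = 0.00954), which was lost without it (-0.38, adjusted p = 0.0754). IFITM3 had 3765, 3564 and 3539.7 normalized counts at day 3 and 3488, 3378 and 3443 at day 9, against 3886, 4052 and 3761 in KO. IFITM3 declined little (day 9 log2 fold change -0.18 ± 0.06, adjusted p = 0.0191), and the call was lost without day 9 replicate 2, day 9 replicate 3 or KO replicate 2 (adjusted p from 0.0507 to 0.093).

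Of the 21 calls at day 3, 12 passed in every fit that left out 1 library, and of the 23 at day 9, 15 did. Beside those named above, the calls lost at day 3 in at least 1 such fit were OAS3, ISG20, DDX60, HERC6, DTX3L and IFI6 (adjusted p from 0.0521 to 0.161). At day 9 they were IFIT5, OAS2, DDX60, DHX58, STAT2 and IFI27 (adjusted p from 0.0512 to 0.213). The other calls that held at day 3 were RSAD2, STAT2, IRF1, PARP9, IFI27, IFIT2, and those already given with per-library values. At day 9 OAS3 and EIF2AK2 were higher than KO by 0.17 ± 0.04 and 0.25 ± 0.06, MX1 by 0.49 ± 0.12, RSAD2 by 1.03 ± 0.27 and IFI6 by 0.40 ± 0.10 on the log2 scale (adjusted p from 0.00221 to 0.0065).

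**Figure D4:**
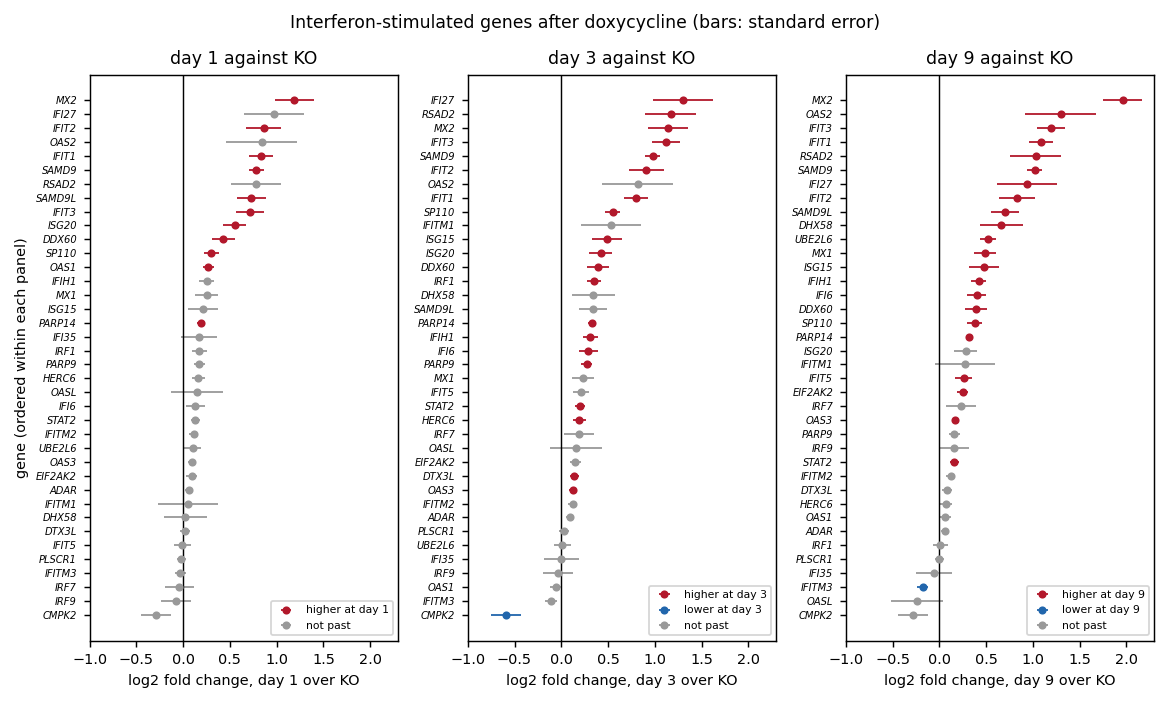
Log2 fold changes of the 38 members at days 1, 3 and 9 of doxycycline over KO, with bars for the standard error, ordered within each panel; red marks members higher than KO, blue lower and grey not past an adjusted p of 0.05. Red points number 11 at day 1, 20 at day 3 and 22 at day 9, and the blue points are CMPK2 at day 3 and IFITM3 at day 9.

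Day 9 and day 3 share a project code and could be compared within it. Of the 38 members, 2 were higher at day 9 and 1 lower, where 3.03% and 4.39% of all genes were. The shares of members were near those of all genes, so the calls below describe single genes and not the list. UBE2L6 differed by 0.51 ± 0.09 (adjusted p = 0.000716) on the log2 scale, a call that held in every fit without 1 library. MX2 differed by 0.83 ± 0.21 (adjusted p = 0.0166), and the call was lost without day 9 replicate 1, day 9 replicate 3, day 3 replicate 1 or day 3 replicate 3 (adjusted p from 0.0536 to 0.105). For IRF1 the libraries held 267, 269.7 and 313 normalized counts at day 9 and 367, 344 and 365 at day 3. IRF1 was lower in all 3 day 9 libraries, with a log2 fold change of -0.34 ± 0.08 and an adjusted p of 0.0156, a call lost without day 9 replicate 1, day 9 replicate 2, day 3 replicate 1 or day 3 replicate 3 (adjusted p from 0.0592 to 0.0748).

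Against WT, part of the members were apart under doxycycline, and not all of these had passed the test between KO and WT. At day 1, 15 of 38 were lower than WT and 6 higher, where 20.8% and 19.9% of all genes were, and the median member was at -0.15 on the log2 scale. The share of members that were higher was near that of all genes. The 6 higher were SAMD9L (2.39 ± 0.15), OASL (0.74 ± 0.28), ISG20 (0.65 ± 0.12), IFITM3 (0.34 ± 0.06), OAS1 (0.22 ± 0.06) and IFITM2 (0.13 ± 0.05). In KO against WT, OASL, ISG20, OAS1 and IFITM2 had not passed (adjusted p from 0.0849 to 0.719). SAMD9L and IFITM3 had been higher there by 1.66 ± 0.15 and 0.37 ± 0.06. The widest gaps among the 15 lower were MX2 (-1.20 ± 0.21), RSAD2 (-1.18 ± 0.27), IFIT3 (-0.97 ± 0.15) and DHX58 (-0.89 ± 0.23). Without day 1 replicate 1, 24 members passed: OASL was lost (adjusted p = 0.0764) and OAS2, SAMD9, IFI6 and IFI35 were added (adjusted p from 0.00654 to 0.0333). Of the 21 calls 16 held in every fit without 1 library, and those lost in 3 to 5 such fits were OASL and IFITM2 among the higher and IFIT1, ADAR and PARP9 among the lower (adjusted p from 0.0522 to 0.202).

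At day 9, 8 of 38 members were lower than WT and 5 higher, where 11.4% and 10.4% of all genes were, and the median member was at -0.06 on the log2 scale. Here too the share of members that were higher was near that of all genes. SAMD9L stood furthest from WT at 2.37 ± 0.15 (adjusted p = 8.5e-10), and IFI6, ISG20, IFITM3 and IFITM2 were higher by 0.42 ± 0.10, 0.38 ± 0.12, 0.19 ± 0.06 and 0.14 ± 0.05. Of these, IFI6, ISG20 and IFITM2 had not passed between KO and WT (adjusted p from 0.521 to 0.85). Those lower were RSAD2 (-0.93 ± 0.27), IFIT3 (-0.49 ± 0.15), SP110 (-0.32 ± 0.08), DTX3L (-0.25 ± 0.05), OAS3 (-0.23 ± 0.04), PARP14 (-0.20 ± 0.04), PARP9 (-0.17 ± 0.06) and ADAR (-0.11 ± 0.04). MX2, which had the largest fall in KO, was at -0.43 ± 0.21 and did not pass (adjusted p = 0.153), but all 3 day 9 libraries lay under WT and it passed in a fit of the 6 compared libraries alone (adjusted p = 0.0271). SAMD9 overlapped WT, at 0.09 ± 0.08 (adjusted p = 0.467). Of these 13 calls 5 held in every fit without 1 library (SAMD9L, IFI6, OAS3, DTX3L and PARP14). The count was 6 without day 9 replicate 2, 6 without WT replicate 2 and 7 without WT replicate 1.

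Several members are neighbours in the genome, and neighbours did not always move alike. SAMD9 and SAMD9L on chromosome 7, with no other protein-coding gene between them, had opposite signs in KO against WT and the same sign at day 1. CMPK2 and RSAD2 on chromosome 2 had opposite signs in KO against WT and again at day 3. PARP9 and DTX3L on chromosome 3, and the IFIT genes on chromosome 10, were lower in KO together. The library kit marks the strand, but the sources used here do not say whether strand was used in counting, so where such genes overlap or are close copies, reads of the pair may not be told apart.

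**Figure D5:**
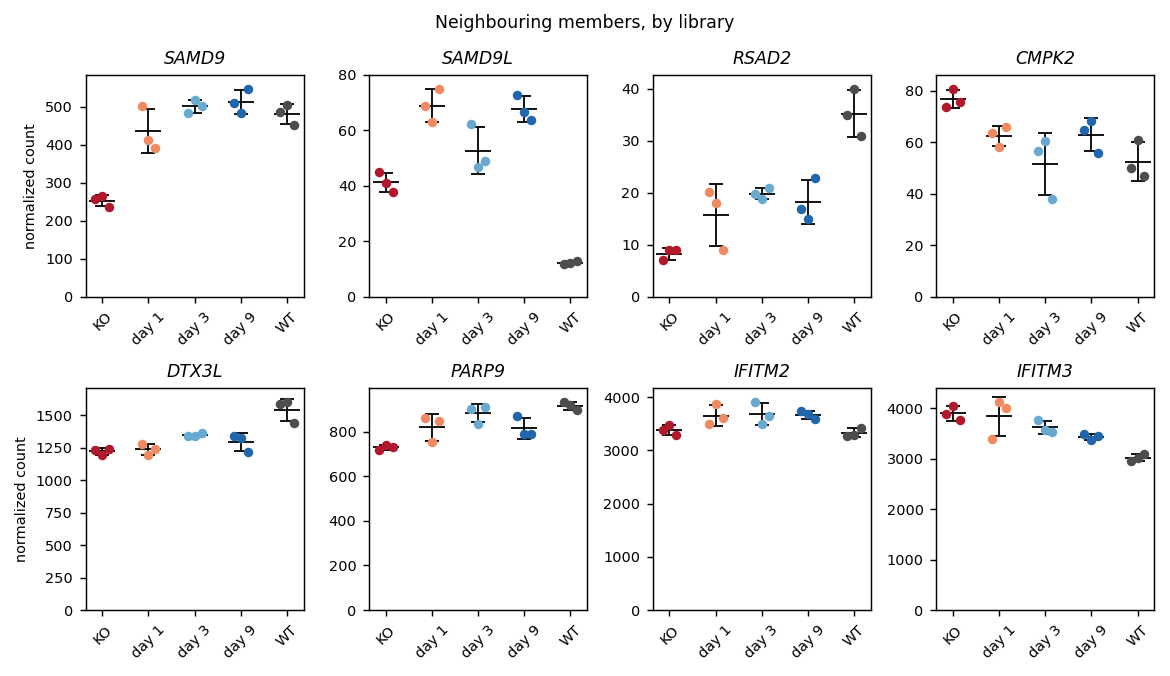
Points are normalized counts of single libraries for 4 pairs of neighbouring or similar members, with the group mean and SD as bars, in KO, at days 1, 3 and 9 of doxycycline, and in WT. SAMD9 is lowest in KO while SAMD9L is lowest in WT, at 11.96 to 12.93.

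The rest of the interferon pathway was examined through lists of genes that are not members. Of 10 interferon genes only IFNE, an epithelial interferon, was analysed here, at 10.95 to 15.94 in KO and 6.96 to 12.96 in WT, and it did not pass the test in any of the 7 comparisons. For the counts that follow between KO and WT, 24.8% of all genes fell and 24.8% rose. Among 6 receptor chains 3 fell and 1 rose in KO. IL10RB, which serves the interferon-lambda and interleukin-10 receptors, averaged 65.4 in KO and 175 in WT (log2 fold change -1.41, adjusted p = 2.15e-09). IFNGR1 averaged 1232 in KO and 1841 in WT (-0.58, adjusted p = 4.25e-08), and IFNAR2 averaged 245 in KO and 286 in WT (-0.23, adjusted p = 0.0252). IFNLR1, the specific chain of the lambda receptor, was higher at 587 in KO and 408 in WT (0.52, adjusted p = 6.24e-06), against the direction of its partner IL10RB.

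Among the kinases and STATs of the pathway JAK1 (-0.26) and STAT3 (-0.23) fell in KO by small margins, while JAK2 and TYK2 did not pass. Of 10 genes of nucleic acid sensing 8 were tested and 4 fell in KO (TLR3, MAVS, TBK1 and STING1, log2 fold changes from -0.41 to -0.19). Of 6 negative regulators 4 were tested and 1 fell, PTPN2 (-0.15), a share close to that of all genes. USP18, the enzyme that removes ISG15 and damps the receptor, averaged 131.8 in KO and 121.3 in WT (adjusted p = 0.452).

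A further list of 25 induced genes had 17 tested, of which 7 fell and 2 rose in KO. HERC5 had 1.99, 2.99 and 1.99 normalized counts in KO, 3.02, 3.00 and 0.00 at day 1, 41.6, 27.8 and 29.8 at day 3, 34.8, 37.7 and 36.8 at day 9 and 129, 113 and 117 in WT. HERC5, the main ligase for ISG15, was at or below 3.02 normalized counts in all KO and day 1 libraries, and lay between 27.8 and 41.6 at days 3 and 9, under every WT library. HERC5 passed the filter on low values only through the groups where it was higher. GBP3 had 176, 162 and 160.2 normalized counts in KO, 242, 245 and 249 at day 1, 426, 430.3 and 427 at day 3, 444, 470.0 and 423 at day 9 and 568, 565 and 557 in WT. TRANK1 had 106, 116 and 126 normalized counts in KO, 158, 154 and 179 at day 1, 243, 280.2 and 255 at day 3, 228, 227 and 205 at day 9 and 437, 474 and 467 in WT. GBP3, a guanylate-binding protein, and TRANK1 rose at each time point against KO. The log2 fold changes at days 1, 3 and 9 were 0.56, 1.36 and 1.42 for GBP3 and 0.49, 1.15 and 0.92 for TRANK1 (adjusted p from 6.56e-13 to 0.00122). RNF213, a very large ubiquitin ligase, averaged 4062 in KO and 6406 in WT (log2 fold change -0.66, adjusted p = 4.93e-11). TRIM14 went the other way, at 753 in KO and 557.5 in WT (0.43, adjusted p = 6.66e-06), and was lower than KO at days 1, 3 and 9 (-0.29, -0.49 and -0.27). Over this list 4 genes rose and 1 fell at day 1, 6 and 1 at day 3, and 4 and 2 at day 9, against KO. Of all genes 4.94% rose and 5.97% fell at day 1, 13.5% and 13.9% at day 3, and 12.4% and 13.4% at day 9. The share of the list that fell was near that of all genes at days 1 and 9.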

How the data were processed

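RNA-seq of 15 DLD1 libraries was read from 1 table of the whole series, in which columns were mapped to samples by their titles. Per the submitters' processing notes, the authors used HISAT2 2.1.0 and the hg19 build, then HTSeq for counting and DESeq2 for normalization. Annotation, strand setting and further versions were not given in the sources used here. Each library's deposited value for a gene is a normalized count, a signal made by dividing counts by a size factor. The authors also deposited, per the file headers, log2 fold changes and adjusted p-values against KO, used only to compare calls. Of 22706 genes, 1 with text in a cell was dropped. Symbols were paired by Ensembl ID from a separate table of gene names (19179 genes).

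Genes at 10 or more in at least 3 libraries (15134) were tested on log2(value + 1). A limma model (limma 3.58.1, with statmod 1.5.0 in R 4.3.3) took all 15 libraries, with a mean for each group and the trend and robust options of eBayes. P-values are two-sided and Benjamini-Hochberg adjusted over all genes kept, with a threshold of 0.05, for 7 comparisons. A count test was planned only for raw counts, and the table holds normalized values, so edgeR and DESeq2 were not run as tests. The fit was tested on simulated data. Between KO and WT the standard error of a gene's log2 fold change had a median of 0.087, which sets the precision.

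The members, their role lists and the lists of other pathway genes were chosen with earlier results of these data known. Values per library are given for up to 24 members, by lowest adjusted p over KO against WT, day 1 against KO and day 9 against day 3, with a mean of at least 20, and up to 5 genes of each other list were named by the same order. A gene of the signalling list is not reported here. Members given by library outside this rule (DDX60, ISG15, IRF7, OAS2, RSAD2 and IFI27) were chosen after their values were seen. Promoter windows and their GRCh38.p14 coordinates come from RefSeq, a different build from the hg19 of the reads, and were matched by symbol. The limit for pairing was a correlation of deviations over 0.1 in every pair of same-numbered replicates. It was met for day 1 against WT (0.53, 0.19 and 0.24). The fits reported are unpaired, and a replicate block, run as an alternative, changed no call there. Day 1 replicate 2 and WT replicate 3, of different numbers, correlated at 0.34, so meeting the limit does not show pairing by number. Other scalings, filters, pseudocounts and sets of libraries, a replicate block and the authors' calls were tried as alternatives. Tables used Python 3.11.15, pandas 2.3.3 and numpy 2.4.6, and figures matplotlib 3.10.9.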

Additional observations from a re-analysis of the deposited data

How the results depend on the processing

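No member changed sign among its calls under any alternative run. The counts of members called kept within 1.5 times of the main count under scaling to equal medians, no filter on low values, a minimum mean of 50, pseudocounts of 0.5 and 5, the 6 compared libraries alone and the authors' deposited calls (25, 9, 16 and 18 for KO against WT and days 1, 3 and 9 against KO). Leaving out 1 library gave 24 to 26 calls for KO against WT, 9 to 15 for day 1 against KO, 14 to 17 for day 3 against KO, 17 to 20 for day 9 against KO, 1 to 3 for day 9 against day 3, 17 to 24 for day 1 against WT and 6 to 13 for day 9 against WT. Same-numbered replicates met the limit for pairing, a correlation of deviations over 0.1 in every pair, for day 1 against WT. They missed it with all pairs above 0 for day 9 against WT (0.36, 0.13 and 0.09) and day 9 against KO (0.26, 0.18 and 0.02). With a replicate block the calls numbered 28, 12, 23, 24, 3, 21 and 14 in the order of KO against WT, days 1, 3 and 9 against KO, day 9 against day 3, and days 1 and 9 against WT, and none of the main calls was lost. The call the block added for day 9 against WT was IFIH1 (adjusted p = 0.0476). Over single members, 184 of the alternative values dropped under the threshold, 44 passed it and 3323 did neither. Members with low counts, OAS2, IFITM1, IFI27, OASL and RSAD2, had the widest errors, with standard errors of 0.27 to 0.38.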
